A study of Mus musculus with 15 samples.

Results

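Tetraploid hepatocytes sorted from the same mice through different gates, 4n-whole and 4n-bottom, were compared. The 4n-whole population was collected through the conventional gate on total Hoechst fluorescence, so it held mononucleated cells (1x4n) and binucleated cells (2x2n) together. The 4n-bottom population was collected through a gate on the peak height of the Hoechst signal, below that of 4n-top, and was enriched for binucleated cells. A cell that fell in the 4n-bottom gate could therefore also have been sorted as 4n-whole, and neither population was pure for a nuclear configuration. The comparison asks which transcripts differ once the binucleated cells are enriched out of the tetraploid pool. Its libraries were the 4 of 4n-whole and the 4 of 4n-bottom, 8 of the 15 in the series, and its genes were the 17488 of 55984 listed symbols that passed the filter on low counts. All libraries came from livers of wild-type adult male C57BL/6JJcl mice, with 1 library per population and mouse. The other populations of the series, 2n-whole (mice 1 to 4) and 4n-top (mice 2, 3 and 4), were used in the fit and appear here as values side by side, apart from a direct test of 4n-whole against 4n-top. Because sorted populations were sequenced in bulk, fewer cells of a kind and less RNA per cell cannot be told apart.

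Hepatocytes differ along the blood flow of the liver lobule. Cells near the portal vein make urea, glucose and much of the plasma protein, whereas cells near the central vein, under Wnt signals from the endothelium of that vein, carry cytochrome P450 enzymes and bile acid synthesis. The layer next to the central vein also makes glutamine through glutamine synthetase (Glul). Polyploid hepatocytes are known to be spread unevenly along this axis. Lists of genes for both ends of the lobule are therefore read first below, followed by lists for other functions.

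Total counts ranged from 22049498 to 38110566 in 4n-whole and from 31461234 to 40831810 in 4n-bottom, and 3 counts, taken as the lowest detectable level, corresponded to between 0.072 and 0.12 CPM (counts scaled to a common library total after TMM normalization), a limit that covers counting error only. The 15 hepatocyte markers summed to between 107919 and 133768 CPM in 4n-whole and between 118386 and 136736 CPM in 4n-bottom. Of them, 4 were lower in 4n-whole at an unadjusted p under 0.05 (Alb, Apob, Serpina1a and Ahsg) and 1 higher (Cyp2e1), against 2.85% and 2.72% of all genes. Summed levels of 20 endothelial markers lay between 11.1 and 52.6 CPM in 4n-whole and between 10.9 and 43.2 CPM in 4n-bottom, and those of 16 Kupffer cell markers did not pass 5.76 CPM. Lymphocyte and neutrophil markers were below 1 CPM in sum, with Cd79a, Cd2, S100a8 and S100a9 at 0 in all 8 libraries. Of the 13 biliary markers 8 were tested, and of these Spp1 and Tm4sf4 were lower in 4n-whole at an unadjusted p under 0.05, as were 2.85% of all genes. The 13 summed to between 97.2 and 132 CPM against between 117 and 149 CPM, and the part of such cells in the results was not tested. The share of counts on the mitochondrial genome ran from 8.84% to 18.5% in 4n-whole and from 12.2% to 23.6% in 4n-bottom. The 4n-whole library of mouse 2 had both the fewest counts and the lowest mitochondrial share.

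The one gene that passed the test was Csad. It encodes cysteine sulfinic acid decarboxylase, which makes the hypotaurine from which taurine for bile acid conjugation is formed. In 4n-whole its level was 89.5 CPM in mouse 1, 209 in mouse 2, 202 in mouse 3 and 225 in mouse 4. The same mice gave 41.2, 137, 146 and 128 CPM in 4n-bottom. Every mouse had more Csad in 4n-whole, and the groups overlapped only through mouse 1, which was low in both populations and also in 2n-whole (35.7 CPM against 91.1 to 99.1). Csad rose by a log2 fold change of 0.75 (SE 0.10; 1.68-fold), with an adjusted p of 0.00107 in edgeR's quasi-likelihood test with the mouse as block. It was the one gene of 17488 (0.00572%) that met both limits, an adjusted p under 0.05 and a log2 fold change beyond 0.5 in size. Without the mouse in the model its log2 fold change was 0.68 but the adjusted p was 1.0, and without mouse 1 the values were 0.64 and 0.0943. The number of genes passing was 0 without mouse 1, 29 without mouse 2, 65 without mouse 3 and 1 without mouse 4, and DESeq2 with the mouse as a term called 44. Csad lies on the minus strand of chromosome 15 (GRCm39, 102085432 to 102113498), where Zfp740 overlaps it on the other strand. Zfp740 itself was at 0.41 (SE 0.13), higher in all 4 mice, and since the strand setting of the read counting was not given in the sources used here, reads of this pair may not have been kept apart. The level in 4n-top was 187, 257 and 206 CPM in mice 2, 3 and 4, a log2 fold change of 0.03 (SE 0.11) for 4n-whole over 4n-top.

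The promoter windows of Csad are shown because it alone passed the test, beside Cyp2e1 and Cyp2f2 as named genes from either end of the lobule. Each holds the 250 bases before a start site in RefSeq on GRCm38.p6, another build than that of the counts, 5′ to 3′ on the strand of the gene. Capitals mark matches on either strand to TATAAA of the TATA box, to CCAAT as bound by NF-Y, to GGGCGG as bound by Sp1, to the E-box CACGTG, to AGGTCA as bound by nuclear receptors, or to CTTTGAT as bound by TCF factors.
Csad, first start (chr15:102205053-102205302, minus strand): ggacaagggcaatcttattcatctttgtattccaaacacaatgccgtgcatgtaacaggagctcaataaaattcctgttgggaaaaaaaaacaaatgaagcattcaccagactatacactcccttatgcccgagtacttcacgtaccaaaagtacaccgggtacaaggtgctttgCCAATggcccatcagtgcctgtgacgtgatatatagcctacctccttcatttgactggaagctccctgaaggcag
Csad, second start (chr15:102189044-102189293, minus strand): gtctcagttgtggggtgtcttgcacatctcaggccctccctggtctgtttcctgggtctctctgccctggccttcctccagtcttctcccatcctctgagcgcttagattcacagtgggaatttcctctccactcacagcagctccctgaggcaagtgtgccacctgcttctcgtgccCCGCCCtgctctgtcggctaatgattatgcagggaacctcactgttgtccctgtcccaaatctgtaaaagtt
Cyp2e1 (chr7:140763569-140763818, plus strand): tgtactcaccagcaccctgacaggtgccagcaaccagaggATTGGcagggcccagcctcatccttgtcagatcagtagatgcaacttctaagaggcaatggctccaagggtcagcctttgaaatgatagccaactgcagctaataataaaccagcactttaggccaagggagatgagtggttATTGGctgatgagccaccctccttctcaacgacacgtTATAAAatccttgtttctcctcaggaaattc
Cyp2f2 (chr7:27119705-27119954, plus strand): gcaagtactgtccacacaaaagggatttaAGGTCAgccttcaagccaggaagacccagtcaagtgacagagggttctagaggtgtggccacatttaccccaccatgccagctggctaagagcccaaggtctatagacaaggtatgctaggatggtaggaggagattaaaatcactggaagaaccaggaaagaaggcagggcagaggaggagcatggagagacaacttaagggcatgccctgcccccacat
CCAAT was found 75 bases before the first Csad start, and GGGCGG in reverse 72 bases before the second. The Cyp2e1 window held TATAAA at 31 bases and CCAAT in reverse at 68 and 210 bases, and the Cyp2f2 window held AGGTCA at 221 bases. Of 32851 such windows in the table, 12% held TATAAA, 33.8% CCAAT, 32.7% GGGCGG, 14.0% AGGTCA, 6.02% CACGTG and 3.21% CTTTGAT. A match describes the letters of a window only.

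Csad included, 974 genes (5.57%) had an unadjusted p under 0.05, of which 475 (2.72%) were higher and 499 (2.85%) lower in 4n-whole, and 0.05 of all genes tested is 874. Apart from Csad, none of the genes described passed the adjusted test. The nearest to it were Mup20 and Apoa4, both lower in 4n-whole. Mup20 encodes darcin, a major urinary protein that acts as a male scent signal. Its level was 930.1, 1032, 1035 and 744 CPM in 4n-whole of mice 1 to 4, and 1563, 1382, 1219.6 and 1383 CPM in 4n-bottom. The groups did not overlap, and each mouse was lower in 4n-whole. The log2 fold change was -0.58 (SE 0.10) with an adjusted p of 0.0527. The annotated span of Mup3 overlaps Mup20 on the same strand, so reads may not have been kept apart there. Apoa4, an apolipoprotein of triglyceride-rich particles, had 19.8, 18.7, 20.6 and 25.8 CPM in 4n-whole and 28.8, 33.5, 27.0 and 50.4 CPM in 4n-bottom. These groups did not overlap either, and the log2 fold change was -0.68 (SE 0.12) with an adjusted p of 0.0527. With DESeq2 size factors in place of TMM, both genes passed.

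**Figure D1:**
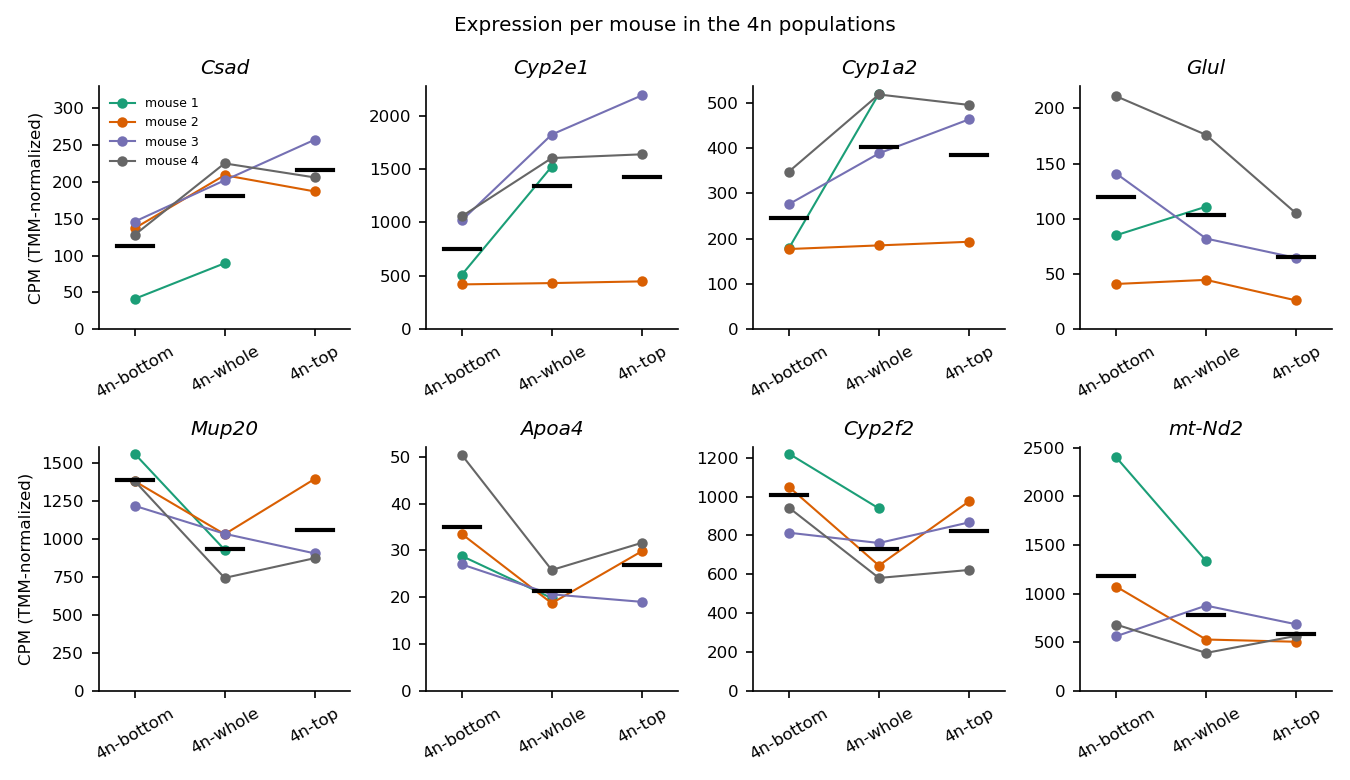
CPM (y axis, from 0) of 8 genes in 4n-bottom, 4n-whole and 4n-top (x axis), with 1 point per library, lines joining libraries of the same mouse and black bars at the mean of each population. Csad is higher in 4n-whole than in 4n-bottom in each of the 4 mice and Mup20 and Apoa4 lower, whereas Cyp2e1 and Cyp1a2 of mouse 2 (orange) lie level across the populations.

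The 10 leading genes by p in each direction were taken only from genes with the same sign in all 4 mice. Of the 10 higher in 4n-whole, 5 stand in the pericentral list described below (Csad, Cyp2a5, Cyp7a1, Cyp1a2 and Rgn) and 0 in the periportal list. Of the 10 lower, 6 stand in the periportal list (Mup20, Apoa4, Cdh1, Ctsc, Etnppl and Cyp2f2) and 1, Aldh1b1, in the pericentral list. The higher genes included Tenm3, a teneurin adhesion protein (log2 fold change 1.03, SE 0.22), Ang, a secreted ribonuclease (0.54, SE 0.12), Rgn, the calcium-binding protein regucalcin that also acts in vitamin C synthesis (0.80, SE 0.18), Acot1, an acyl-CoA thioesterase (0.60, SE 0.14), and Acaa1b, a peroxisomal thiolase (0.40, SE 0.09). Ang overlaps Rnase4 (0.31, SE 0.12) on the same strand, and Pitx3 (1.02, SE 0.23) overlaps Elovl3 (0.40, SE 0.14) on the other strand, so reads of these pairs may also have been mixed. The lower genes included Ugt2b38, a glucuronosyltransferase (-0.67, SE 0.13), Slc3a1, a subunit of the cystine transporter (-0.52, SE 0.11), Ctsc, the protease cathepsin C (-0.56, SE 0.13), and Cib3 (-0.88, SE 0.21). Slc3a1 had 42 to 50.7 CPM in 4n-whole against 59.4 to 77.7 CPM in 4n-bottom, and Ctsc had 49.7 to 65.4 CPM against 66.3 to 109 CPM. For both genes the ranges did not touch. Mup20, Apoa4, Slc3a1, Ctsc and, further below, Fbp1 were named for a small p, which favors ranges that do not touch. How many of all genes had such ranges was not counted. Across all genes tested, 1004 (5.74%) were higher and 1076 (6.15%) lower in 4n-whole in all 4 mice.

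Of 39 pericentral genes, all of them tested, 24 were higher in 4n-whole at an unadjusted p under 0.05 (61.5%, against 2.72% of all genes) and 1 was lower. The gene lists here and below were chosen with earlier results of these data known. Their shares, and their overlap with the leading genes above, are therefore no independent test. Csad is a member of the pericentral list and the only one that passed the adjusted test. The median log2 fold change over the list was 0.55, and that over all genes was -0.01. In all 4 mice 14 of the 39 were higher, against 5.74% of all genes, and 1 was lower, against 6.15%. The mice differed in this list. In mouse 1 the median log2 difference was 1.02, with 36 of 39 members higher, and in mice 3 and 4 it was 0.39, with 32 and 31 members higher. In mouse 2 it was -0.04, with 19 members higher and 20 lower. The 4n-whole library of mouse 2 was also the one with the fewest counts and with a mitochondrial share of 8.84%, and their part in this value was not tested. Without mouse 2, 26 members were higher at that p and the median was 0.71. Without mouse 1 these were 16 members and 0.30. With no mouse in the model 5 members were left, with the median still at 0.55.

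The pericentral list held P450 enzymes, among them enzymes of bile acid synthesis, beside genes of other kinds. Cyp2e1, which oxidizes ethanol and small solvents, had 1523, 432, 1822 and 1602 CPM in 4n-whole of mice 1 to 4 and 509.6, 419.6, 1019 and 1057 CPM in 4n-bottom. It was near level in mouse 2 and clearly apart in the other mice, and its log2 fold change was 0.80 (SE 0.19) with an adjusted p of 0.183. Cyp1a2, which oxidizes caffeine and aromatic amines, had 519.6, 185, 388 and 518 CPM against 179, 177, 276 and 348 CPM. Mouse 2 again showed nearly the same level in both populations, and the log2 fold change was 0.67 (SE 0.15) with an adjusted p of 0.151. Cyp7a1, the rate-limiting enzyme of bile acid synthesis, had 44.6, 41.7, 127 and 77.3 CPM against 17.9, 38.3, 66.1 and 46.5 CPM, a log2 fold change of 0.82 (SE 0.18). Cyp2a5, a coumarin hydroxylase, was at 0.64 (SE 0.14). Each was higher in 4n-whole in all 4 mice, with log2 differences in mouse 2 between 0.04 for Cyp2e1 and 0.26 for Cyp2a5.

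Regulators of this zone were also measured. Nr1i3, the xenobiotic receptor CAR, was at 0.65 (SE 0.16), Ahr, the receptor that induces Cyp1a2, at 0.53 (SE 0.16) and Tbx3, a transcription factor downstream of Wnt, at 0.65 (SE 0.20). Cldn2, a tight junction protein, was at 0.72 (SE 0.20). The pericentral Cyp2c genes Cyp2c29, Cyp2c50, Cyp2c54 and Cyp2c37 were at 0.83, 0.62, 0.62 and 0.55, each higher in 3 of 4 mice, and reads of this family of close copies may be split among its members. Of the 10 tested genes among 15 Wnt target and feedback genes, Tbx3, Notum, Rnf43, Ccnd1 and Axin2 were higher at an unadjusted p under 0.05 (50%, against 2.72% of all genes). The other 5 did not pass it, with Tcf7 at 0.40 (SE 0.43), Lgr5 at 0.08 (SE 0.66), Znrf3 at 0.04 (SE 0.15), Nkd1 at -0.04 (SE 0.78) and Dkk3 at -0.70 (SE 1.44). In mouse 2, 5 of the 10 were higher and 5 lower, and the list's median of 0.37 ran from 0.25 without mouse 3 to 0.69 without mouse 2. Of the 10, 1 was higher in all 4 mice, where 5.74% of all genes were. Tbx3 and Axin2 are also counted in the pericentral list and Ccnd1 in the midlobular list. Axin2, the feedback inhibitor used as a Wnt readout, averaged 6.58 CPM in 4n-whole (SD 2.64, n = 4) but 4.13 CPM in 4n-bottom (SD 1.13, n = 4), and was higher in 3 of 4 mice. Sp5, Lef1, Rspo3, Wnt2 and Wnt9b were too low to be tested.

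Some pericentral genes went the other way or lay level. Aldh1b1, a mitochondrial aldehyde dehydrogenase, was lower in 4n-whole in all 4 mice (log2 fold change -0.56, SE 0.12). Glul had 111, 44.7, 82.1 and 176 CPM in 4n-whole of mice 1 to 4 and 85.1, 41.0, 141 and 211 CPM in 4n-bottom. Mice 1 and 2 were higher and mice 3 and 4 lower in 4n-whole, and the log2 fold change was -0.13 (SE 0.14). Slc1a2, a glutamate transporter of the same layer of cells, had 23.7, 5.41, 41.9 and 54.6 CPM against 20.7, 11, 61.4 and 62.3 CPM, a log2 fold change of -0.34 (SE 0.18). Glul and Slc1a2 were thus below 0 where most of the list lay above, though neither had an unadjusted p under 0.05, and they do not stand for all genes of that layer. In 4n-top the levels of Glul were 26.1, 64.6 and 105 CPM and those of Slc1a2 4.80, 33.0 and 26.4 CPM in mice 2, 3 and 4. For 4n-whole over 4n-top the log2 fold change of Glul was 0.77 (SE 0.16; unadjusted p 6e-05, adjusted p 0.897 in edgeR) and that of Slc1a2 was 0.74 (SE 0.20). Oat, which makes glutamate from ornithine, was at 0.45 (SE 0.19) over 4n-bottom, but its log2 differences were 1.41, -0.16, 0.04 and 0.39 in mice 1 to 4, and without mouse 1 the value was 0.11.

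**Figure D2:**
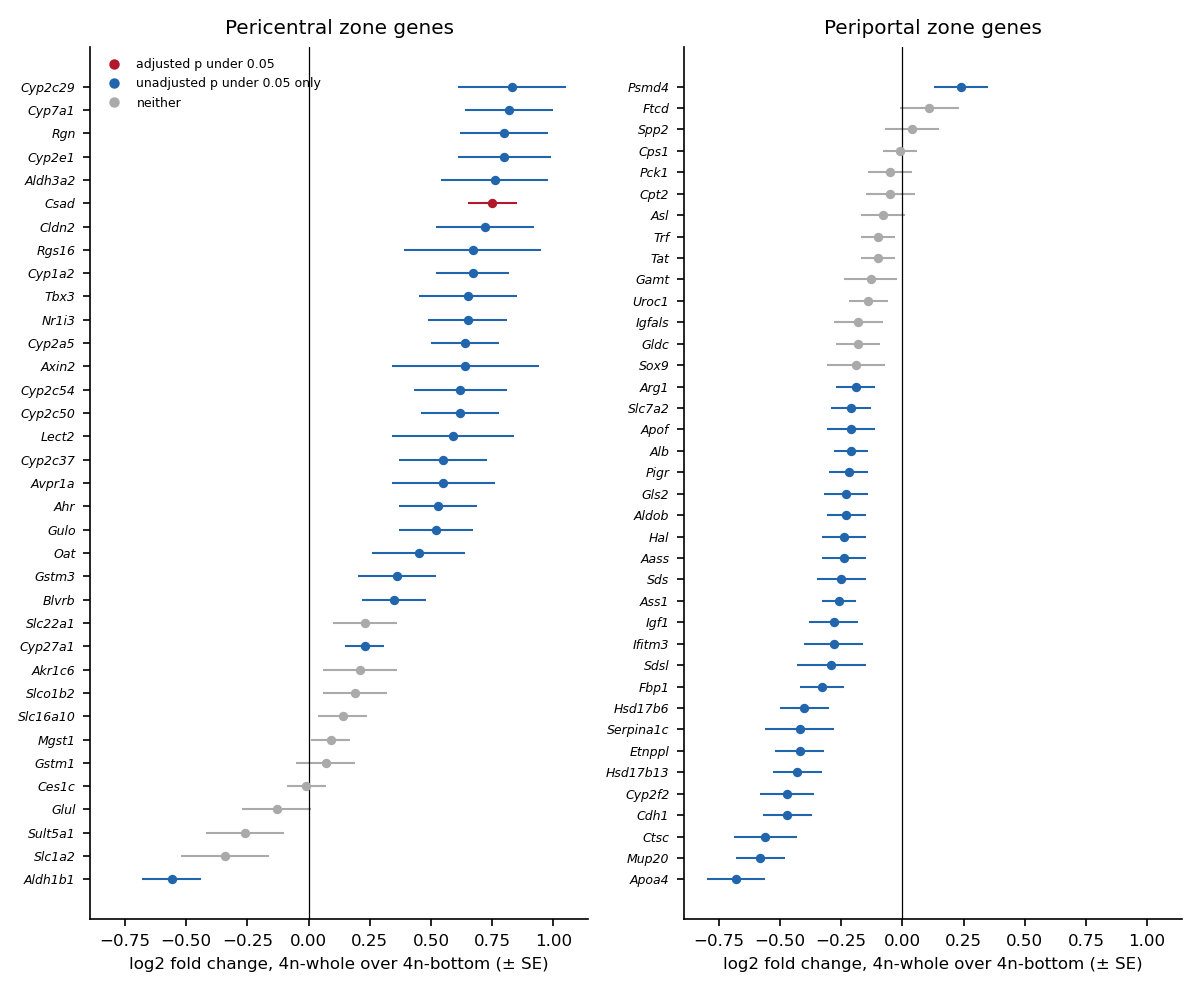
Log2 fold change of 4n-whole over 4n-bottom (x axis) with its SE for the members of the pericentral list (left) and the periportal list (right), ordered by size, in red for an adjusted p under 0.05, blue for an unadjusted p under 0.05 only and gray for neither. Of the pericentral genes 35 are drawn, since 4 with an SE of at least 0.5 (Lgr5, Rhbg, Slc22a3 and Tuba8) are left out, and Csad is the only red point. Aldh1b1, Slc1a2, Sult5a1 and Glul stand below 0 in the left panel.

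Periportal genes gave the opposite sign with smaller sizes. Of the 38 tested among 39 (G6pc was not among the deposited symbols), 24 were lower in 4n-whole at an unadjusted p under 0.05 (63.2%, against 2.85% of all genes) and 1, Psmd4, a proteasome subunit, was higher. The median was -0.22, and it was alike over the mice, at -0.24, -0.26, -0.12 and -0.29 in mice 1 to 4. In all 4 mice 21 of the 38 were lower (55.3%, against 6.15% of all genes). Unlike the pericentral list, mouse 2 gave the same sign here as the others, with 28 of 38 members lower. That sign in mouse 2 was not particular to periportal genes. Conjugation enzymes (-0.34) and branched chain amino acid breakdown genes (-0.30) had lower medians there, whereas nucleus-retained RNAs (0.55) and immediate early and stress genes (0.39) were positive. The part of its 4n-whole library, with the fewest counts, was not tested. Without the mouse in the model 9 members were lower at that p, and leaving out mice one by one gave between 16 and 24.

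Cyp2f2, a P450 of periportal cells, had 939, 645, 761 and 581 CPM in 4n-whole of mice 1 to 4 and 1221, 1049.8, 814 and 943 CPM in 4n-bottom. It was lower in each mouse, least in mouse 3, with a log2 fold change of -0.47 (SE 0.11) and an adjusted p of 0.183. Cdh1, E-cadherin of the adherens junction, was at -0.47 (SE 0.10), Etnppl, an ethanolamine phosphate lyase, at -0.42 (SE 0.10) and Hsd17b13, a lipid droplet protein, at -0.43 (SE 0.10). Of 15 urea cycle and ammonia genes, 5 were lower (33.3%, against 2.85% of all genes) and 1 higher at an unadjusted p under 0.05. Of these, Ass1, Gls2 and Arg1 are also counted in the periportal list, and Oat, the higher one, in the pericentral list. Ass1 had 3178, 3589, 3057 and 3587 CPM against 3735, 4573, 3224 and 4621 CPM, lower in each mouse (log2 fold change -0.26, SE 0.07). Otc was at -0.35 (SE 0.12) and Arg1 at -0.19 (SE 0.08), whereas Cps1, which starts the cycle, was at -0.01 (SE 0.07) and Asl at -0.08 (SE 0.09). Gls2, which releases ammonia from glutamine, was at -0.23 (SE 0.09). Fbp1 of gluconeogenesis had 705 to 756 CPM in 4n-whole against 776 to 1026 CPM in 4n-bottom, ranges that did not touch, while Pck1 lay at -0.05 (SE 0.09). Hal and Sds, which break down histidine and serine, were at -0.24 and -0.25. In their list 5 of 25 genes were lower at an unadjusted p under 0.05 (20%, against 2.85% of all genes) and none higher. Hal, Sds and Sdsl among these are also counted in the periportal list.

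Midlobular genes were few. Igfbp1 and Igfbp2, which bind insulin-like growth factors, were at 0.37 (SE 0.11) and 0.23 (SE 0.09), and Cyp8b1, which sets the makeup of the bile acids, was at 0.22 (SE 0.09). Hamp, the iron hormone hepcidin, was at 0.07 (SE 0.13), and Hamp2 was not tested, with counts from 0 to 2. Mup3 was lower (-0.28, SE 0.11). Of the 7 tested genes, 4 were higher (57.1%, against 2.72% of all genes) and 1 lower (14.3%, against 2.85%) at an unadjusted p under 0.05. Of the 7, 1 was higher in all 4 mice, where 5.74% of all genes were, and mouse 2 had 2 higher and 5 lower, with a median of -0.09.

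**Figure D3:**
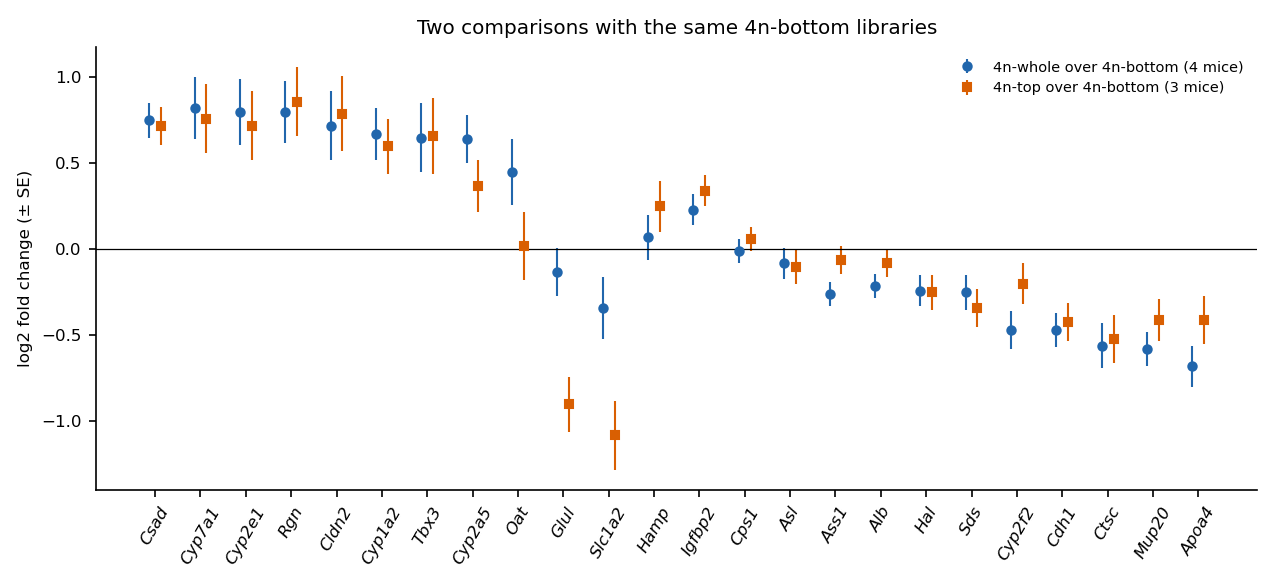
Log2 fold changes (y axis, with SE) of 24 named genes over the same 4n-bottom libraries, for 4n-whole in 4 mice (blue circles) and for 4n-top in 3 mice (orange squares). Csad stands at 0.75 and 0.72, while Glul stands at -0.13 for 4n-whole and -0.90 for 4n-top and Slc1a2 at -0.34 and -1.08. Both comparisons share the 4n-bottom libraries.

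Whether 4n-whole and 4n-top differ was tested directly. For 4n-whole over 4n-top, 0 of 17488 genes (0.0%) passed the adjusted test in edgeR, 700 (4.0%) had an unadjusted p under 0.05, with 358 (2.05%) higher and 342 (1.96%) lower, and DESeq2 called 40. In that comparison 4 pericentral genes were higher and 1 lower at this p, and 3 periportal genes lower. Other lists differed more here, with 14 of 70 nuclear respiratory chain genes lower, 5 of 10 nucleus-retained RNAs higher and 7 of 59 plasma protein genes lower. For 4n-top over 4n-bottom the medians of these lists were 0.04, -0.07 and 0.02. What set 4n-whole apart from 4n-top in them was not tested. The median of the pericentral list was 0.07 and that of the periportal list -0.12. In the 3 mice with a 4n-top library the difference of 4n-top from 4n-bottom had a pericentral median of 0.10 in mouse 2, 0.53 in mouse 3 and 0.37 in mouse 4, beside -0.04, 0.39 and 0.39 for 4n-whole.

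P450 and related oxidation genes, a list that shares members with both zones, had 17 of 47 tested members higher (36.2%, against 2.72% of all genes) and 2 lower, and 9 of the 17 also stand in the pericentral list. The list's median was 0.12, made up of 0.32 and 0.22 in mice 1 and 3 but -0.09 and -0.02 in mice 2 and 4, where 27 and 24 of the 47 were lower. Without mouse 1 the median was 0.04. Por, the reductase that feeds electrons to all microsomal P450s, was at 0.34 (SE 0.10). Cyp3a11, an abundant drug-oxidizing P450, was at -0.04 (SE 0.12) and Cyp2b10 at -0.02 (SE 0.12). For the other metabolic lists, the counts at an unadjusted p under 0.05 stand against 2.72% higher and 2.85% lower over all genes. Conjugation enzymes were mixed, with 2 of 40 higher and 4 lower, led by Ugt2b38. Taurine and cysteine genes other than Csad were close to level, with Cdo1, the enzyme before Csad, at 0.18 (SE 0.09) and Cth at -0.17 (SE 0.08). Of the 20 tested genes of bile acid synthesis, Cyp7a1, Cyp27a1 and Cyp8b1 were higher and the bile acid transporters Slc10a1 and Abcb11 lower, at -0.26 and -0.19. Fatty acid oxidation and PPAR alpha target genes had 4 of 41 higher and 1 lower, lipogenesis and glucose use genes 3 of 29 in each direction, and cholesterol synthesis genes 1 of 24 higher. Acly, which supplies acetyl-CoA for fatty acids, was at -0.27 (SE 0.08) and lower in all 4 mice. Among heme genes Cpox, an enzyme of heme synthesis, was at 0.39 (SE 0.09) and Blvrb, a biliverdin reductase, at 0.35 (SE 0.13), each higher in all 4 mice.

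Plasma protein genes were lower in 18 of 59 cases (30.5%, against 2.85%) and higher in 1, Rbp4. Alb, the most abundant of them, had 49839, 55203, 68436 and 49605 CPM in 4n-whole of mice 1 to 4 and 57184, 64974, 72067 and 61782 CPM in 4n-bottom. It was lower in each mouse, with a log2 fold change of -0.21 (SE 0.07). F9 and Orm1 were at -0.39 and -0.33, each lower in 3 of 4 mice. Of the 18 lower members, Apoa4, Serpina1c, Alb and Apof are also counted in the periportal list. The median of the plasma protein list was -0.25 and -0.24 in mice 2 and 4 and -0.02 and 0.04 in mice 1 and 3. Major urinary protein and growth hormone target genes had 5 of 29 lower (17.2%, against 2.85%), Mup20, Igf1, Mup10, Mup3 and Serpina3k. In the same list 2 were higher (6.9%, against 2.72%), Socs2 and Elovl3. Mup20 and Igf1 are also counted in the periportal list.

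Transcripts of the mitochondrial genome were lower in 7 of 15 cases (46.7%, against 2.85%) and higher in none. mt-Nd2, a complex I subunit, had 1335, 527, 876 and 389 CPM in 4n-whole of mice 1 to 4 and 2402, 1072, 561 and 681 CPM in 4n-bottom. Mice 1, 2 and 4 were lower and mouse 3 higher in 4n-whole, and the log2 fold change was -0.53 (SE 0.23). mt-Atp6 was at -0.91 (SE 0.22) and overlaps mt-Atp8 and mt-Co3 on the same strand. The list's median was -0.57, -1.0, 0.50 and -0.52 in mice 1 to 4. Mouse 3, whose mitochondrial share was 15.7% in 4n-whole and 12.2% in 4n-bottom, had the opposite sign, and without it the median was -0.66. Nuclear genes of the respiratory chain were lower in 10 of 70 cases (14.3%, against 2.85%) and higher in none, with a median of -0.08, and citric acid cycle genes in 3 of 22. The respiratory chain medians were -0.19 and -0.22 in mice 2 and 4 but -0.02 and 0.07 in mice 1 and 3, with 41 of 70 genes higher in mouse 3. Mice 2 and 4 had the 4n-whole libraries with the fewest counts (22049498 and 28612634) and the lowest mitochondrial shares (8.84% and 11.0%), and the part of these in the split between mice was not tested. Atp5me of the ATP synthase was at -0.38 (SE 0.11), lower in all 4 mice. Ndufa4 was at -0.52 (SE 0.15), with -0.29, -1.16, 0.26 and -0.93 in mice 1 to 4 and a value of -0.32 without mouse 2.

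**Figure D4:**
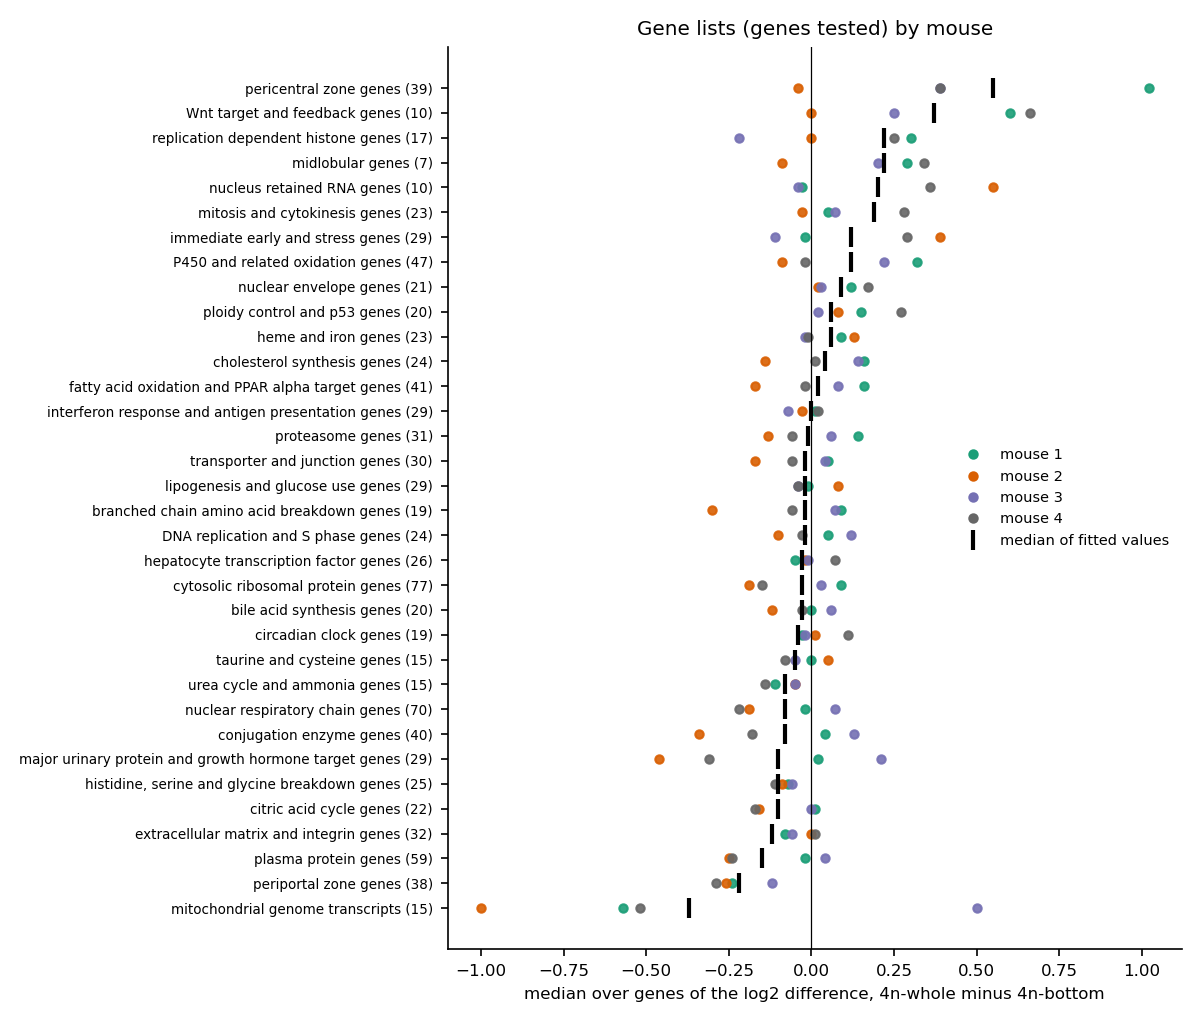
Median over the tested genes of 34 lists of the log2 difference between 4n-whole and 4n-bottom (x axis), as 1 point per mouse and a black bar for the median of the fitted values. Mouse 1 is at 1.02 and mouse 2 at -0.04 for the pericentral list, all 4 mice are between -0.29 and -0.12 for the periportal list, and mouse 3 is at 0.50 for transcripts of the mitochondrial genome, opposite to the others.

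Genes of the cell cycle and of nuclear structure were followed because the populations differ in the number of nuclei per cell, and their counts stand against 2.72% higher and 2.85% lower over all genes. Of 24 genes of DNA replication and S phase, none had an unadjusted p under 0.05, and the median was -0.02. In the mitosis and cytokinesis list 1 of 23 tested genes was higher, the proliferation marker Mki67, with 2.32, 5.45, 0.16 and 0.379 CPM in 4n-whole and 2.51, 1.68, 0.0623 and 0.105 CPM in 4n-bottom, levels near the detection limit in mice 3 and 4. Plk1, Bub1 and Ccnb1 were too low to be tested. Among 20 genes of ploidy control and p53, Ccn1 (0.33, SE 0.12), Zmat3 (0.42, SE 0.19) and Amotl2 (0.25, SE 0.11) were higher, the first and last being targets of YAP, and Casp2, Pidd1 and Cradd of the complex that senses extra centrosomes were at 0.54, 0.47 and 0.30 without reaching that p. Trp53 was at -0.12 and Cdkn1a at -0.24. Of 21 nuclear envelope genes, 13 had positive values and 1, Lmnb2, passed an unadjusted p of 0.05 (4.76%, near the share of all genes). Histone genes gave H1f1 and H1f5 higher among 17. Nucleus-retained RNAs gave Nlrp6 and Mlxipl higher among 10, with Malat1 at 0.18 and Neat1 at 0.09, and mice 2 and 4 had list medians of 0.55 and 0.36 against -0.03 and -0.04 in mice 1 and 3, the same split of the mice as for the respiratory chain genes.

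The remaining lists had few members past an unadjusted p of 0.05, where 2.72% of all genes were higher and 2.85% lower. Cytosolic ribosomal protein genes had 3 of 77 lower and none higher, proteasome genes 1 of 31 in each direction, circadian clock genes none of 19, hepatocyte transcription factor genes 2 of 26 higher (Tbx3 and Cebpa), branched chain amino acid breakdown genes 1 of 19 in each direction, transporter and junction genes 2 of 30 higher and 4 lower, and extracellular matrix and integrin genes 1 of 32 in each direction. Immediate early and stress genes had 4 of 29 higher, with the metal-binding protein gene Mt1 at 0.46 (SE 0.12), and 1 lower. Their medians were 0.39 and 0.29 in mice 2 and 4, whose 4n-whole libraries had the fewest counts and the lowest mitochondrial shares, but -0.02 and -0.11 in mice 1 and 3, with 22 of 29 lower in mouse 3, and the part of those libraries was not tested. In the interferon response and antigen presentation list Ly6e, a membrane protein, had 96.5, 98.6, 57.9 and 64.7 CPM in 4n-whole and 116, 142, 69.4 and 93.7 CPM in 4n-bottom. It was lower in each of the mice (log2 fold change -0.40, SE 0.10), as was Ifitm3 (-0.28), while the interferon regulator Irf1 was higher in all 4 mice (0.38, SE 0.13) and B2m, the shared chain of class I molecules, was lower in 3 of 4 (-0.42, SE 0.14).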

How the data were processed

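Hepatocytes sorted by Hoechst fluorescence were sequenced with the SMART-Seq Stranded kit from 20 ng of total RNA. Per the labels, the authors aligned reads with STAR 2.7.11a to GRCm39 and deposited raw counts per gene from featureCounts. The strand setting and the annotation were not given in the sources used here. From these counts, edgeR 4.0.16 in R 4.3.3 was used with TMM scaling, its default filter (minimum count 10, minimum total 15) and the quasi-likelihood test on all 15 libraries, with population and mouse as terms. Genes were called at an adjusted p (Benjamini-Hochberg) under 0.05 with a log2 fold change beyond 0.5 in size. The labels number the subject of each library, and residuals of the same mouse correlated at 0.154 to 0.227 between 4n-whole and 4n-bottom, against at most 0.0282 for different mice.

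The members and gene lists were chosen with earlier results of these data known. Named genes had a mean of at least 1 CPM and were up to 10 per direction by p with the same sign in all 4 mice, up to 3 per list by p, and landmarks of liver zonation. Other list members named in the text were chosen after their values were seen. Gene positions came from the GRCm39 annotation. Alternatives used DESeq2 1.42.0, ComBat-seq of sva 3.50.0, other filters and scalings, thinned counts, and leaving out each mouse. The main test was also run on counts simulated from its own fit, and no result above rests on that run.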

Additional observations from a re-analysis of the deposited data

Results flagged for a closer look

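Of 238 groups of 4 libraries, 16 held 1 library far from the other 3 by Dixon's criterion, and chance alone gives about 1 in 20. Csad in 4n-whole of mouse 1 was one of them, at 89.5 CPM against 202 to 225 CPM in the other mice. Mouse 2 stood apart in 4n-whole for Aldh1b1 (196 CPM against 108 to 117), Irf1 (103 against 20.7 to 33.9) and Zmat3 (10.7 against 7.57 to 7.78), and in 4n-bottom for Fdps (153 against 58.6 to 70.5). Its erythroid cell and platelet markers summed to 107 CPM in 4n-bottom against 71.1 to 76.7 in the others. Mouse 3 was high in 4n-whole for Mt1 (358 CPM against 64.9 to 107) and for the summed hepatocyte markers (133768 against 107919 to 110632), and low in 4n-bottom for Cox7b (69.7 against 109 to 115).

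Mouse 4 was high for Socs2 in both populations, at 31.5 CPM in 4n-whole (others 16.1 to 18) and 21.1 CPM in 4n-bottom (others 11.7 to 12.3), and in 4n-bottom for Slc3a1 (77.7 against 59.4 to 61.9) and Vtn (1925 against 1746 to 1747). Its stellate cell markers summed to 2.81 CPM in 4n-whole, below the 3.89 to 4.07 of the others. In 4n-bottom of mouse 1, Cps1 was low (7246 CPM against 8511 to 8725) and mt-Co3 high (7.60 CPM against 5.05 to 5.30).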

How the results depend on the processing

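The 1 gene called in 4n-whole over 4n-bottom depended on the fit. With no replicate block, 0 genes were called (377 at an unadjusted p under 0.05), with the 8 libraries alone 0 (744), and with these and no replicate block 0 (223), so 0 were higher in each. DESeq2 size factors gave 3 genes, 2 of them lower, and leaving out mitochondrial and ribosomal RNA gave 2, of which 1 was lower. No filter on low counts gave 45 (24 higher, 21 lower), DESeq2 with the mouse 44 (21 and 23), and ComBat-seq before DESeq2 30 (16 and 14). Leaving out 1 mouse at a time gave 0 to 65 genes, 0 to 22 higher and 0 to 43 lower. The cause was not tested.

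For 4n-whole over 4n-top, where 0 genes were called, no filter gave 5, DESeq2 with the mouse 40, ComBat-seq before DESeq2 4, and leaving out 1 mouse 0 to 1. Without the pairing by mouse, 5 pericentral genes were higher and 9 periportal genes lower at an unadjusted p under 0.05, and in the 8 libraries without it 9 and 7. Leaving out each mouse gave 16 to 26 and 16 to 24. Cps1, at -0.01, moved to between 0.0 and 0.01 in 12 alternatives, with -0.02 to 0.01 over the left-out mice, and Glul was at 0.08 without mouse 3, in a range of -0.31 to 0.08 over the left-out mice. Of 1362 values of named genes under alternatives, 1257 kept their direction and side of the threshold, 88 passed it only there, 4 no longer passed and 13 changed sign, in 2 genes. The 4 that no longer passed were all of Csad, which was called in 11 of 15 alternatives. The other named genes had not passed in the main fit, so keeping their side meant staying uncalled, which says nothing on how firm a call is. Of 509 list medians, 11 moved by more than the spread between mice. Bulk libraries from 4 mice and the overlap of the gates limit the size of difference that can be seen.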
